A study of Mus musculus with 6 samples.

Results

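Cells recognise foreign or misplaced nucleic acids with a small set of sensor proteins, and 10 genes for such sensors and their adaptors were followed here in mouse leukemia cells. They are Ddx58 (RIG-I), Ifih1 (MDA5) and Dhx58 (LGP2), which are RNA helicases of the cytosol, Mavs, their adaptor on mitochondria, Eif2ak2 (PKR) and Adar (ADAR1), which bind double-stranded RNA, Tlr3, Tlr7 and Tlr9, which are receptors of the endosome, and Myd88, the adaptor of most Toll-like receptors. The members were chosen by name from known function, with earlier results of these data known, and all 10 were found among the 53618 named genes of the table. Each group was 3 libraries, 1 per mouse, of GFP+Lin-c-Kit+ splenocytes from recipients of Usp18+/f UBCER-Cre AE9a leukemia cells, sorted 3 days after the first injection. The control recipients had been given oil and their cells are labelled Usp18+/f, while the other recipients had been given tamoxifen and their cells are labelled Usp18+/Δ. AE9a, a shortened form of the AML1-ETO oncoprotein, causes acute myeloid leukemia in mice, and GFP marks the leukemia cells. In this line Cre is driven by the ubiquitin C promoter and acts only when tamoxifen is present, so an effect of tamoxifen itself and one of the intended deletion of an Usp18 allele cannot be told apart here. Both groups carried the floxed allele, the Cre and the AE9a oncogene. The study's methods give one age range of young adult mice for all its animals, and the number of independent leukemia clones is not given in the sources used here.

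RIG-I and MDA5 bind viral or self RNA in the cytosol and pass the signal through MAVS to the kinases TBK1 and IKKε and the factors IRF3 and IRF7, which switch on type I interferon genes. LGP2 has no signaling domain of its own and tunes the other two helicases. PKR stops translation by phosphorylating eIF2α when it binds double-stranded RNA, and ADAR1 edits adenosine to inosine in double-stranded RNA, which keeps self RNA from being sensed. TLR3 signals through TICAM1, while TLR7 and TLR9 signal through MyD88. Several of these genes are themselves interferon-stimulated genes (ISGs), and USP18, the product of the targeted gene, is a negative regulator of interferon signaling.

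The libraries held between 19172471 and 23785143 reads. The value used throughout is the deposited normalized count, which is the read count of a gene divided by one size factor per library. The targeted gene was not lower under the label of its deletion. Usp18 had 217, 214 and 176 normalized counts in the oil libraries and 477, 329 and 284 in the tamoxifen libraries, so the libraries labelled tamoxifen lay above those labelled oil. The log2 difference of Usp18 was 0.81 (limma adjusted p 0.666), and 0.60 without tamoxifen 1 (limma adjusted p 0.181). The reads of an intact and a deleted allele were not separated. By qRT-PCR and western blot, the paper reports higher interferon responses in sorted Usp18+/Δ leukemia cells, the direction that its labels give. The paper also reports enriched interferon pathways in its bulk RNA-seq of such cells, which rests on the labels themselves. An exchange of labels was not tested here. The library labelled tamoxifen 1 stood apart from the others: its median correlation with the other libraries was 0.913 against 0.981 to 0.990, its mitochondrial reads were 0.00923% of the total against 1.01% to 1.56%, and its deviations followed GC content with a Spearman correlation of 0.687 against -0.222 to -0.00173. The members' differences and, for the pathway lists, the medians and the counts of genes that separated the groups are therefore given with and without it. Of the leukemia and progenitor markers, Kit was at 4687 to 10976 and Gata2 at 8872 to 13302 normalized counts, but the myeloid enzyme genes Mpo and Elane were at 20.2 or less. Both were higher in every tamoxifen library, with Mpo at 0.898, 0 and 4.64 in the oil libraries and 6.39, 20.2 and 7.28 in the tamoxifen libraries, and Elane at 1.86 at most in the oil libraries and up to 11.1 in the tamoxifen libraries. Myb, a progenitor transcription factor gene, was lower in every tamoxifen library, with 6692, 5402 and 5328 in the oil libraries and 3097, 5188 and 5165 in the tamoxifen libraries. Runx1t1, the gene of the ETO part of the fusion, was at 1532 to 2097, and Cd34, a stem and progenitor surface marker, at 843, 288 and 349 in the oil libraries and 201, 658 and 1052 in the tamoxifen libraries, and the groups overlapped for both. The 7 erythroid markers summed to 49381 to 85520. Of the other cell types the sort could hold, the 10 macrophage markers summed to 80.1 to 214 normalized counts in the oil libraries. In the tamoxifen libraries they summed to 245 to 346, with 5 of the 10 higher in every tamoxifen library. Among all genes tested, 7.86% were higher in every tamoxifen library and 9.69% were lower, and these shares apply beside each marker list here. The 6 NK cell markers summed to 59.8 to 159 in the oil libraries and 193 to 662 in the tamoxifen libraries, nearly all of it from Nkg7, while Ncr1, Klrb1c, Gzma and Eomes had 0 reads in all 6 libraries. The 8 B cell markers summed to 16.2 to 22.2 and 24.2 to 34.6, with Cd79b higher in every tamoxifen library and Ms4a1 at 0 reads in all. The 8 plasmacytoid dendritic cell markers summed to 6615 to 7728 in the oil libraries and 2839 to 8399 in the tamoxifen libraries, nearly all from Ly6d and Lair1, while Cox6a2, at 9.09 or less, was higher in every tamoxifen library, Klk1 had 0 reads and Siglech at most 1. The 7 dendritic cell markers summed to 85.3 to 130.2 and 84.9 to 174, nearly all from Zbtb46, while Clec9a and Cd209a had 0 reads in all. The 6 neutrophil markers summed to 13.0 to 25.1 and 12.8 to 24.2, with S100a9 higher in every tamoxifen library and Ly6g at 0 reads, and the 7 T cell markers summed to 8.08 at most, with Cd3e and Cd8a at 0 reads. The part of these cells in the results below was not tested. In bulk samples, fewer cells of a type and less RNA per cell cannot be told apart.

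The sequences around the transcription starts are shown first, because interferon acts on such genes through a motif near the start, the interferon-stimulated response element (ISRE). For 8 of the 10 members a window from 250 bases before to 50 bases after the start was in the RefSeq promoter table (GRCm38.p6), with 10 windows in all since Adar has 3. Dhx58 and Tlr7 were not in that table. The core GAAANNGAA was searched on both strands, where N is any base. It was in 8.56% of all 32851 windows of this length, and 9.76% of all 27025 genes had it in at least 1 window. A match is a description of letters and not a shown binding site. The core was found for 5 members, which were Ddx58, Ifih1, Eif2ak2, Adar and Myd88, and was not found for Mavs, Tlr3 or Tlr9 in these windows. The 5 windows with a match are printed 5′ to 3′ on the gene's strand with each match in capitals. A match on the opposite strand reads as its reverse complement TTCNNTTTC. The start is base +1, and positions give the first base of a match.
Ddx58, chr4:40239776-40240075, minus strand, match at 4: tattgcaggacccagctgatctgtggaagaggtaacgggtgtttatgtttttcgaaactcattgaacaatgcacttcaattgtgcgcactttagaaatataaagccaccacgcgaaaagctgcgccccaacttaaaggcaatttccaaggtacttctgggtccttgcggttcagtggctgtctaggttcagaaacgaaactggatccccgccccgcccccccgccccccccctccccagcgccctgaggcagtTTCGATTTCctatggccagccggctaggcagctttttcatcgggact
Ifih1, chr2:62646206-62646505, minus strand, matches at -112 and 33: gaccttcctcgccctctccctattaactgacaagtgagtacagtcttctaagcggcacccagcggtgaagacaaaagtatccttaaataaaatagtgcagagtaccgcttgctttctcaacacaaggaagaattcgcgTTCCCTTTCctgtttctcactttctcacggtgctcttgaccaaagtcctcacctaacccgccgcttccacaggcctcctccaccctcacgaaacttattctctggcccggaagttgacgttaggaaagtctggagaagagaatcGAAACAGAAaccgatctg
Eif2ak2, chr17:78882523-78882822, minus strand, overlapping matches at 19 and 25: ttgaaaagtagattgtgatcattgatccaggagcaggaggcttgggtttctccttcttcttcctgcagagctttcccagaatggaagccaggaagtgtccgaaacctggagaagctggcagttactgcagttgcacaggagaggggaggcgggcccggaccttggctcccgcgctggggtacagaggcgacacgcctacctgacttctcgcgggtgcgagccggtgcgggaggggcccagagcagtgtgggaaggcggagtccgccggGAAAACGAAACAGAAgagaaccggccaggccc
Adar, the third window, chr3:89730468-89730767, plus strand, matches at -249 and 34: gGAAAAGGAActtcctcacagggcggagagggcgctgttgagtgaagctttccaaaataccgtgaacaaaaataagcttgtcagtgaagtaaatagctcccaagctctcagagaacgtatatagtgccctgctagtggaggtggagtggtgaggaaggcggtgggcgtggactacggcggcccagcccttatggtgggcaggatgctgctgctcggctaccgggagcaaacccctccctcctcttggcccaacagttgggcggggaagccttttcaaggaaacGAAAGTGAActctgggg
Myd88, chr9:119339969-119340268, minus strand, match at -40: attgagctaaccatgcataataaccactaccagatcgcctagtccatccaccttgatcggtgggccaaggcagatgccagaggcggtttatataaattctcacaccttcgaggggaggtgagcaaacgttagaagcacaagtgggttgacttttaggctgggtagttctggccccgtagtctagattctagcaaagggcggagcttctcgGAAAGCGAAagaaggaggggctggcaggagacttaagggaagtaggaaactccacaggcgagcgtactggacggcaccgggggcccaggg
A second motif, TTCNNNGAA, the core of the gamma-activated site, reads the same on both strands and may share bases with the first. It was in 8.30% of all windows, and among these it was found in the window of Adar at 23, of Eif2ak2 at -178 and of Myd88 at -46.

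Dhx58 had the largest difference of the members in limma on all 6 libraries, followed by Ddx58 and Adar, whose order changed when oil 3, tamoxifen 2 or tamoxifen 3 was left out. Dhx58 (LGP2) is encoded on chromosome 11, 100694884 to 100704271, minus strand (GRCm38). Its normalized counts were 234, 233 and 231 in the oil libraries and 937, 528 and 479 in the tamoxifen libraries. The 3 oil libraries were close to each other, and every tamoxifen library lay above all of them, with tamoxifen 1 the highest. The means were 233 ± 1.63 and 648 ± 251 (SD, n = 3 each), a ratio of 2.79. On the log2(value + 1) scale the difference was 1.41 with a standard error of 0.28 (95% interval 0.74 to 2.07), and limma gave an adjusted p of 0.618. Without tamoxifen 1 it was 1.11 with a standard error of 0.12 (0.85 to 1.37), and the limma adjusted p was 0.00397, so Dhx58 passed the threshold of 0.05. In that setting the ratio of means was 2.16. Dhx58 shares 141 exon bases with the antisense gene Dhx58os, which itself had means of 0.631 and 2.89 normalized counts.

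Ddx58 (RIG-I), the sensor of RNA with a 5′ triphosphate end, lies on chromosome 4, 40203773 to 40239828, minus strand. It had normalized counts of 461, 572 and 398 in the oil libraries and 814, 870 and 787 in the tamoxifen libraries. The groups did not overlap, and the 3 tamoxifen libraries lay within a narrower range than the oil libraries. The means were 477 ± 88.0 and 824 ± 42.4 (SD, n = 3 each), and the log2 difference was 0.80 with a standard error of 0.19 (95% interval 0.36 to 1.24, limma adjusted p 0.666). Without tamoxifen 1 it was 0.81 (0.48 to 1.14, limma adjusted p 0.0755), so Ddx58 differed by nearly the same amount in the remaining libraries.

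Ifih1 (MDA5), which prefers long double-stranded RNA, lies on chromosome 2, 62595798 to 62646255, minus strand. Its normalized counts were 646, 770 and 739 in the oil libraries and 883, 1052 and 798 in the tamoxifen libraries. The groups did not overlap, but the lowest tamoxifen library lay close to the highest oil library. The log2 difference was 0.34 with a standard error of 0.17 (95% interval -0.08 to 0.75, limma adjusted p 0.666) and 0.35 without tamoxifen 1 (0.06 to 0.65, limma adjusted p 0.332).

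**Figure D1:**
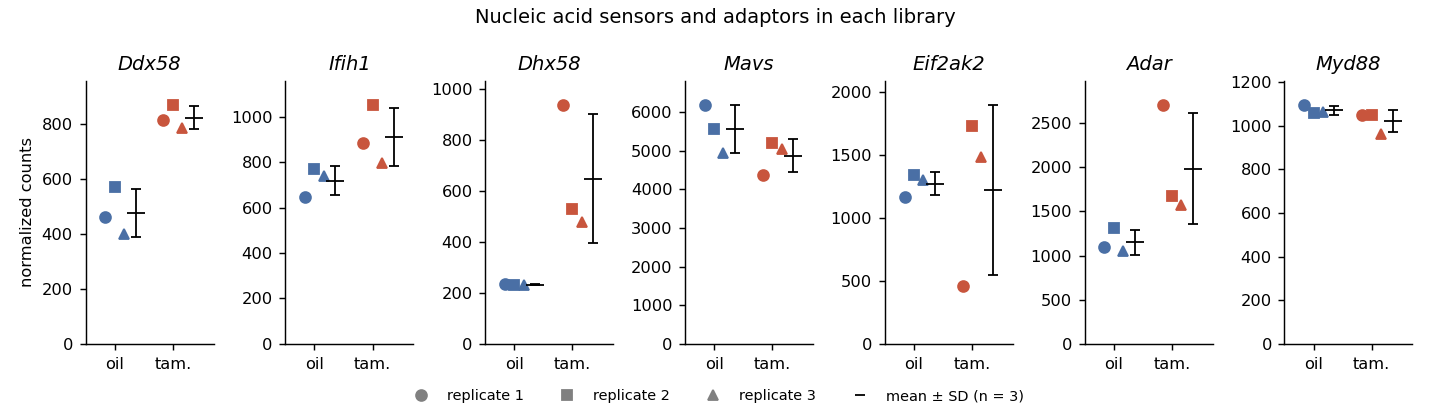
Normalized counts (linear axis from 0) of the 7 members that passed the filter, with 1 point per library, marker shape by replicate number and the mean ± SD of 3 libraries in black. Dhx58, Ddx58, Ifih1 and Adar lie higher in every tamoxifen library, and tamoxifen 1 is far from the others for Dhx58, Eif2ak2 and Adar.

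Mavs, the adaptor through which RIG-I and MDA5 signal, lies on chromosome 2, 131234063 to 131248025, plus strand. Normalized counts of Mavs were 6180, 5546 and 4949 in the oil libraries and 4377, 5206 and 5030 in the tamoxifen libraries, and the groups overlapped. The log2 difference was -0.19 (95% interval -0.55 to 0.17, limma adjusted p 0.666) and -0.11 without tamoxifen 1 (-0.33 to 0.10). Mavs also had the highest level per length of all members.

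Eif2ak2 (PKR), the kinase that shuts down translation, lies on chromosome 17, 78852564 to 78882573, minus strand. Its normalized counts were 1170, 1347 and 1301 in the oil libraries and 458, 1729 and 1488 in the tamoxifen libraries. Tamoxifen 1 was the lowest of all 6 libraries, while tamoxifen 2 and 3 lay above every oil library. The log2 difference over all 6 libraries was -0.27 with a standard error of 0.49 (95% interval -1.44 to 0.91, limma adjusted p 0.787). Without tamoxifen 1 it was 0.34 (0.11 to 0.56, limma adjusted p 0.223), so the sign rested on that 1 library. Eif2ak2 shares 174 exon bases with the opposite-strand gene Gm26637, which had means of 68.5 and 56.5 normalized counts.

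Adar, whose transcripts start at a constitutive and at an interferon-inducible promoter, lies on chromosome 3, 89715022 to 89753446, plus strand. The gene had normalized counts of 1092, 1307 and 1050 in the oil libraries and 2706, 1675 and 1568 in the tamoxifen libraries. Every tamoxifen library lay above every oil library. The means were 1150 ± 138 and 1983 ± 628 (SD, n = 3 each), and the log2 difference was 0.75 with a standard error of 0.24 (95% interval 0.17 to 1.33, limma adjusted p 0.666). Without tamoxifen 1 it was 0.50 (0.26 to 0.74, limma adjusted p 0.116). Adar shares 1365 exon bases with Chrnb2 on the opposite strand, which had means of 79.4 and 55.3 normalized counts.

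Myd88, the adaptor of TLR7, TLR9 and the interleukin-1 receptor, lies on chromosome 9, 119335934 to 119341411, minus strand. Its normalized counts were 1096, 1058 and 1062 in the oil libraries and 1049, 1051 and 965 in the tamoxifen libraries. All 3 tamoxifen libraries lay below all oil libraries, but by little. The log2 difference was -0.07 with a 95% interval of -0.39 to 0.25 (limma adjusted p 0.795), and -0.09 without tamoxifen 1 (-0.28 to 0.10). Myd88 shares 290 exon bases with Acaa1a on the opposite strand, which had means of 1274 and 1932 normalized counts, and the strand setting of the counting is not given in the sources used here.

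The endosomal receptors themselves were almost without reads. Tlr3, the receptor for double-stranded RNA, had 0, 3 and 0 reads in the oil libraries and 1 read in each tamoxifen library. Tlr7, which senses single-stranded RNA, had 0 reads in every oil library and 1, 5 and 2 reads in the tamoxifen libraries. Tlr9, the receptor for unmethylated CpG DNA, had 0, 0 and 1 reads in the oil libraries and none in the tamoxifen libraries. A floor of 3 reads stood at 0.126 to 0.157 CPM, that is reads scaled to library size, covering counting error only, and no fold is given. For Tlr3 and Tlr9 every library was at or under this floor, and no difference was detectable at this depth. For Tlr7 every tamoxifen library had a read and no oil library did, but only tamoxifen 2 was above the floor. These 3 genes did not pass the filter on low values. In limma without that filter they had unadjusted p-values of 0.533 (Tlr3), 0.00663 (Tlr7) and 0.442 (Tlr9), and the adjusted p of Tlr7 was 0.713.

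**Figure D2:**
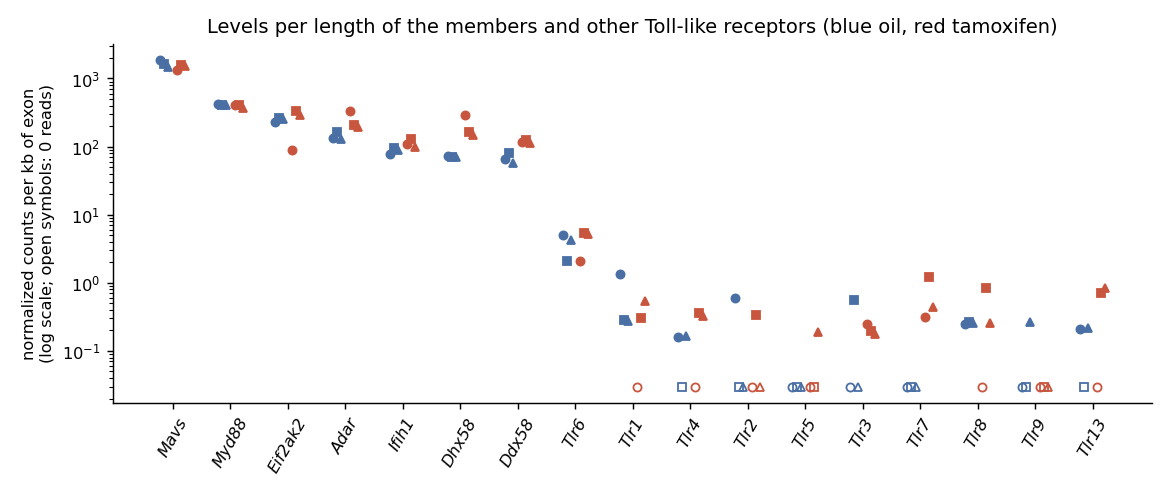
Normalized counts per kb of exon (log axis) of the 10 members and of other Toll-like receptors, with 1 point per library, oil in blue and tamoxifen in red, marker shape by replicate and open symbols at the bottom for 0 reads. Mavs stands highest and Tlr3, Tlr7 and Tlr9 lie below every expressed member.

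Levels were compared between genes per kb of exon. In the oil libraries the order of the mean levels was Mavs with 1662 normalized counts per kb, Myd88 with 416, Eif2ak2 with 249, Adar with 142, Ifih1 with 88.0, Dhx58 with 71.1 and Ddx58 with 67.7. The first 4 did not overlap with their neighbours over the 3 libraries. Ddx58 ranged from 56.5 to 81.2 per kb, which covers Dhx58 at 70.7 to 71.7 and reaches Ifih1 at 79.1 to 94.3. Within each oil library, both Ddx58 and Dhx58 were below Ifih1. The order of Ddx58 and Dhx58 differed between the oil libraries and could not be told. In the tamoxifen libraries the mean levels per kb were 1456 for Mavs, 397 for Myd88, 244 for Adar, 240 for Eif2ak2, 198 for Dhx58, 117 for Ddx58 and 112 for Ifih1. Dhx58 thus had a higher mean level per kb than Ddx58 and Ifih1 in the tamoxifen group, with a spread of 76.8 (SD, n = 3) over libraries of which tamoxifen 1 was the highest. In tamoxifen 2 and 3 alone, the mean levels per kb were 315 for Eif2ak2, 200 for Adar, 154 for Dhx58, 117 for Ddx58 and 113 for Ifih1, so Eif2ak2 then stood above Adar.

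Counted together, 7 of the 10 members passed the filter, and each of the 7 did so in both groups. In limma on all 6 libraries, 0 of the 7 passed the adjusted threshold, and 0% of all 12298 genes tested did. At an unadjusted p under 0.05 the members Dhx58, Ddx58 and Adar were higher, with limma p-values of 0.00176, 0.00396 and 0.0190, where 3.23% of all genes were higher at that limit. Without tamoxifen 1 the count was 5 of 7, with Ifih1 (limma p 0.0246) and Eif2ak2 (limma p 0.00750) added, where 6.04% of all genes were higher. DESeq2 on the recovered reads called 1 member, Dhx58 (log2 difference 1.47, adjusted p 0.00264). It called 0.285% of its 24246 genes higher, a set that includes genes below the limma filter. All 3 tamoxifen libraries lay above all oil libraries for 4 of the 7 members, namely Dhx58, Ddx58, Ifih1 and Adar, against 7.86% of all genes, and below them for 1, Myd88, against 9.69%. With 3 libraries against 3, an exact two-sided permutation test of 1 gene can give no p below 0.1. Without tamoxifen 1, both remaining tamoxifen libraries lay above all oil libraries for 5 members, with Eif2ak2 added, against 12.6% of all genes. They lay below all oil libraries for 1 member, Myd88, against 16.8% of all genes. The median log2 difference of the 7 members was 0.34, beside -0.02 over all genes tested. The members were chosen with earlier results of these data known, so these shares are no independent comparison.

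Without tamoxifen 1, limma called 1 member higher, Dhx58, against 0.309% of all genes. DESeq2 called 3, namely Dhx58 (1.13, adjusted p 1.03e-09), Ddx58 (0.81, adjusted p 0.000155) and Adar (0.51, adjusted p 0.00426), against 0.736% of its 23788 genes. When the libraries were weighted by their spread in limma, which gave tamoxifen 1 a weight of 0.0377, the same 3 members passed, with adjusted p-values of 0.000195 for Dhx58, 0.0116 for Ddx58 and 0.0268 for Adar, where 3.82% of all genes were called higher. Ifih1, Mavs, Eif2ak2 and Myd88 passed in none of the settings run.

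**Figure D3:**
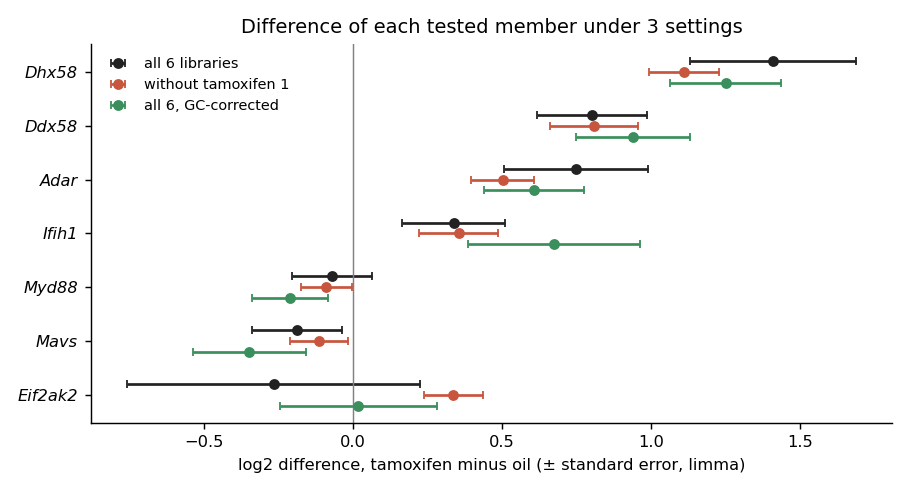
Log2 difference between tamoxifen and oil of the 7 tested members, as points with the standard error from limma, for all 6 libraries, without tamoxifen 1 and with a GC correction. Dhx58, Ddx58, Adar and Ifih1 stay above 0 in each setting, and Eif2ak2 goes from -0.27 to 0.34 without tamoxifen 1.

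The deviation of tamoxifen 1 ran with the GC content of a gene, and the members differ in GC content. Dhx58 (53.9% GC) was 1.99 and Adar (53.4% GC) 1.05 above the median of the other libraries in tamoxifen 1 on the log2 scale, while Eif2ak2 (43.9% GC) was at -1.56. Ddx58 (46.6% GC) and Ifih1 (42.8% GC) were at 0.51 and 0.20. Of the 4406 tested genes with under 47% GC, a limit that was not planned, 84.3% lay below 0. Mavs and Myd88, with GC contents of 53.9% and 53.5%, were at -0.25 and -0.01. After each library had been corrected for GC content, the log2 differences were 1.25 for Dhx58, 0.94 for Ddx58, 0.67 for Ifih1, 0.61 for Adar, 0.02 for Eif2ak2, -0.21 for Myd88 and -0.35 for Mavs, and the limma adjusted p-values were 0.160 to 0.981.

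**Figure D4:**
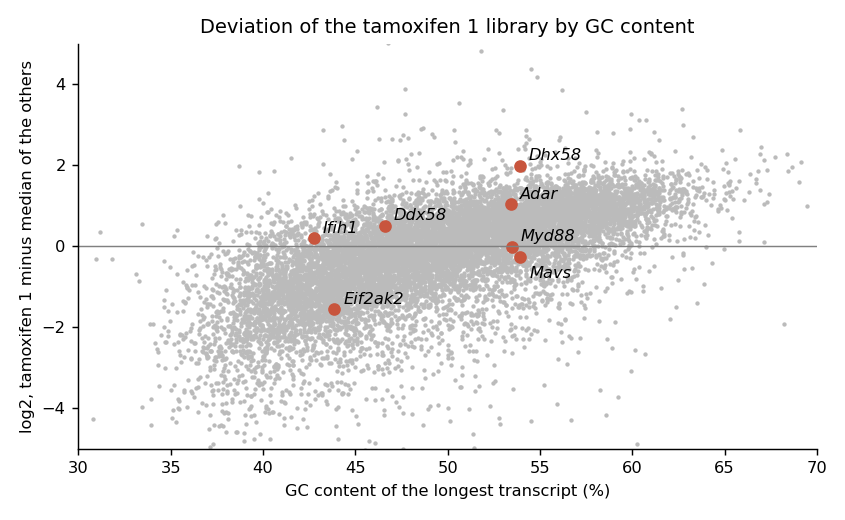
GC content of the longest transcript (x axis, %) against the log2 deviation of tamoxifen 1 from the median of the other 5 libraries (y axis), with 12104 tested genes in grey, 46 more outside the axes, and the members in red. Most genes of low GC content lie below 0, Eif2ak2 among them, and Dhx58 lies highest of the members.

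Of the other genes of these pathways, 102 of the 124 in the table passed the filter. None passed the adjusted threshold in limma on all 6 libraries, 8 had an unadjusted p under 0.05 in either direction against 4.47% of all genes, 53 had a log2 difference above 0 and 49 below, and the median was 0.01 in all 6 libraries and without tamoxifen 1. All 3 tamoxifen libraries lay above all oil libraries for 16 of them against 7.86% of all genes, and below for 10 against 9.69%. Without tamoxifen 1 these were 23 against 12.6% and 18 against 16.8%. DESeq2 on the recovered reads, where 0.285% of its 24246 genes were called higher, called Ifit1, Irf7 and Oas3. The same 3 genes were called by limma without tamoxifen 1, where 0.309% of 12298 genes were called higher.

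Among the RNA sensors of the cytosol and their partners, 23 of 25 genes were tested, 7 were higher in every tamoxifen library (7.86% of all genes) and 1 was lower (9.69%), and the median log2 difference was 0.10 and 0.08 without tamoxifen 1. Without tamoxifen 1, 8 were higher in both remaining libraries (12.6% of all genes) and 1 lower (16.8%). Ifit1, which binds RNA lacking a self cap, had 32.3, 39.6 and 25.1 normalized counts in the oil libraries and 298, 226 and 236 in the tamoxifen libraries, a log2 difference of 2.95 (limma adjusted p 0.0950) that was 2.82 without tamoxifen 1 (limma adjusted p 0.00183). Oas3, a synthase of the 2-5A messenger that activates RNase L, had 820, 938 and 864 in the oil libraries and 3511, 1883 and 1724 in the tamoxifen libraries (1.37, limma adjusted p 0.666, and 1.05 without tamoxifen 1, limma adjusted p 0.00183). Both lay clear of the oil range, and for both tamoxifen 1 was again the highest. Ddx60, a helicase reported to help RIG-I, was low with 15.3, 5.79 and 3.71 in the oil libraries and 17.9, 40.4 and 45.5 in the tamoxifen libraries (2.04, limma adjusted p 0.666, and 2.45 without tamoxifen 1, limma adjusted p 0.125).

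In the signalling steps below MAVS and the endosomal receptors, 23 of 24 genes were tested, 5 were higher in every tamoxifen library (7.86% of all genes) and 4 lower (9.69%), and the median was -0.04 and 0.00075 without tamoxifen 1. Without tamoxifen 1, 6 were higher (12.6% of all genes) and 6 lower (16.8%). Irf7, the interferon-inducible factor that drives interferon alpha genes, had 255, 350 and 245 normalized counts in the oil libraries and 1394, 890 and 824 in the tamoxifen libraries, a log2 difference of 1.84 (limma adjusted p 0.426) that was 1.61 without tamoxifen 1 (limma adjusted p 0.00277). Ikbke, the kinase IKKε, had a difference of 0.97 (0.63 without tamoxifen 1), from 251, 282 and 270 to 845, 408 and 421. Traf3, an adaptor ubiquitin ligase, had a difference of 0.49 (0.31 without tamoxifen 1). The related kinase gene Tbk1, chosen after its values were seen, had 2255, 2021 and 1912 in the oil libraries and 887, 1879 and 1861 in the tamoxifen libraries, so all tamoxifen libraries lay below. Irf3, chosen in the same way, had 922, 921 and 927 against 1857, 830 and 755. Without tamoxifen 1 the log2 differences of Tbk1 and Irf3 were -0.14 and -0.22, beside -0.50 and 0.19 in all 6 libraries.

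**Figure D5:**
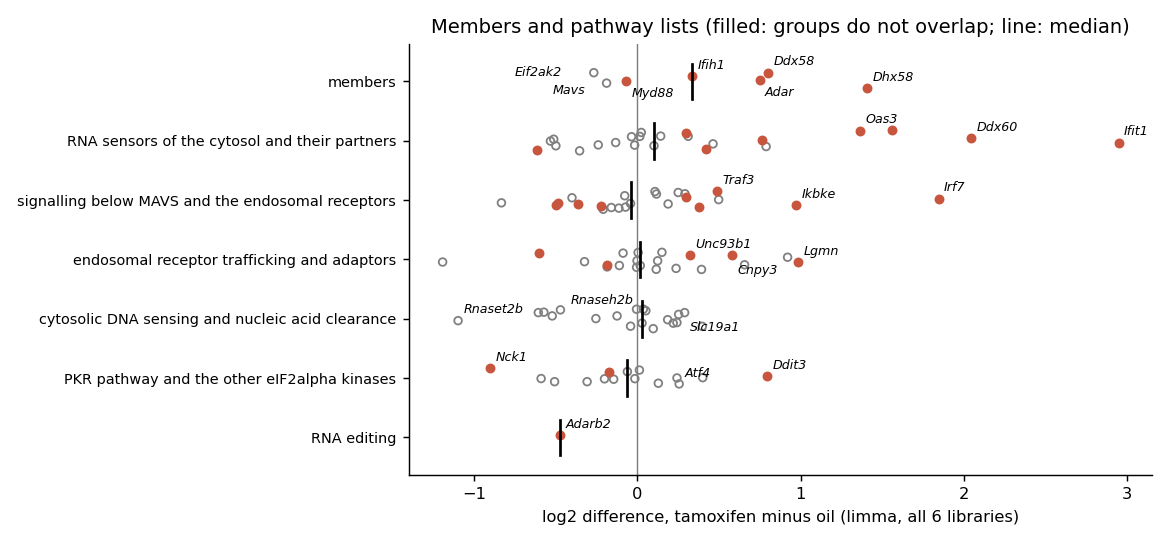
Log2 difference between tamoxifen and oil (limma, all 6 libraries) of each tested gene, by list, with filled points where the 3 tamoxifen and 3 oil libraries do not overlap and a black line at the median of the list. The members have a median of 0.34, and the medians of the other lists with over 1 tested gene lie between -0.06 and 0.10.

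Of the genes for trafficking and adaptors of endosomal receptors, 21 of 34 were tested, 3 were higher in every tamoxifen library (7.86% of all genes) and 2 lower (9.69%), and the median was 0.02 with and without tamoxifen 1. Without tamoxifen 1, 7 were higher in both remaining libraries (12.6% of all genes) and 3 lower (16.8%). Unc93b1, the chaperone that carries TLR3, TLR7 and TLR9 to the endosome, had 407, 409 and 356 normalized counts in the oil libraries and 486, 448 and 531 in the tamoxifen libraries (limma adjusted p 0.666). Its log2 difference was 0.32 with and without tamoxifen 1, and 0.066 after the GC correction (limma adjusted p 0.909). Unc93b1 was thus well above the level of the receptors it carries. Lgmn, an endosomal protease, and Cnpy3, a chaperone of Toll-like receptors, had differences of 0.98 and 0.58, which were 0.60 and 0.19 without tamoxifen 1, and 0.91 and 0.32 after the GC correction. Tlr8 and Tlr13 had 4 reads or fewer in every library, and Tlr11 and Tlr12 none in any.

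Cytosolic DNA sensing and nucleic acid clearance had 19 tested genes, none of which separated the groups in either direction over all 6 libraries (7.86% and 9.69% of all genes), with a median of 0.03. Without tamoxifen 1, 1 was higher (12.6% of all genes) and 4 lower (16.8%), with a median of -0.03. Mb21d1, the DNA sensor cGAS, had 936, 1120 and 1147 normalized counts in the oil libraries and 1102, 1104 and 978 in the tamoxifen libraries, with a log2 difference of -0.01 (-0.03 without tamoxifen 1). This gene was chosen after its values were seen. The genes with the smallest p were Rnaseh2b (-0.25) and Slc19a1 (0.29), which encode a ribonuclease subunit and a folate carrier that also transports cyclic dinucleotides, and Rnaset2b (-1.10). Without tamoxifen 1 these were -0.17, 0.09 and -0.41, and after the GC correction -0.02, 0.12 and -1.03. Trex1, a DNA exonuclease, was listed at 0 in all libraries, and it shares 1147 exon bases with Atrip on the same strand, which had means of 486 and 580 normalized counts.

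The PKR pathway with the other eIF2α kinases had 15 genes tested of 15, 1 higher in every tamoxifen library (7.86% of all genes) and 2 lower (9.69%), and a median of -0.06 and -0.01 without tamoxifen 1. Without tamoxifen 1, 1 was higher (12.6% of all genes) and 3 lower (16.8%). Ddit3 (CHOP), a stress target, had a log2 difference of 0.79, with 344, 339 and 344 normalized counts in the oil libraries and 1159, 379 and 477 in the tamoxifen libraries. Atf4, the factor translated when eIF2α is phosphorylated, had 0.26, and Nck1, an adaptor that limits eIF2α phosphorylation, had -0.90. Without tamoxifen 1 these were 0.31 for Ddit3, 0.12 for Atf4 and -0.33 for Nck1, and after the GC correction 0.99, 0.05 and -0.34. Of the other RNA editing genes, Adarb2 alone was tested of 4, with a log2 difference of -0.47 (-0.32 without tamoxifen 1) and 19.8, 20.3 and 21.4 against 11.5, 15.2 and 17.3 normalized counts.

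The genes whose profile over the 6 libraries was nearest the mean centred log2 profile of Ddx58, Ifih1 and Dhx58, by root mean square distance, were Oas1b (0.109), Gm15774 (0.114), Ifi27l2b (0.119), Fam212b (0.126) and Igtp (0.139), where the median over all genes tested was 0.519. The helicases themselves lay farther from this mean than these 5 genes, at 0.141 for Ddx58, 0.289 for Ifih1 and 0.355 for Dhx58. Oas1b, for example, had 71.9, 85.9 and 85.4 normalized counts in the oil libraries and 166, 128 and 124 in the tamoxifen libraries. Without tamoxifen 1 the 5 nearest were other genes, namely Xaf1, Aqp3, Hsh2d, Tgtp2 and Samd9l, at 0.109 to 0.114 beside a median of 0.419, and the 5 named first stood at ranks 6 to 18 of 12189 genes.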

How the data were processed

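Bulk RNA-seq was performed by the authors on 6 libraries, which were processed with STAR and DESeq2 on mm10 per the labels. The deposited values are a normalized signal, that is read counts divided by a library's size factor. All values above 0 (100%) were, in each library, whole multiples, within 0.01, of a single step, so whole reads were recovered. In tamoxifen 2 this step was 1.01. The strand setting, counting tool and annotation are not given in the sources used here. Of 55450 rows, 1832 without a gene name (0.0400% to 0.0614% of reads) were left out. Of 53618 named rows, 51944 matched GENCODE vM21 (GRCm38), which gave coordinates, exon length and GC content.

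limma 3.58.1 (R 4.3.3) with a mean-variance trend was run on log2(value + 1) for genes with 10 or more in at least 3 libraries, two-sided, with Benjamini-Hochberg adjustment and a threshold of 0.05. This scale understates the change of low genes. DESeq2 1.42.0, edgeR 4.0.16 and voom on recovered reads, other scalings, pseudocounts and filters, library weights, each library left out in turn, the replicate block and a GC correction (loess, span 0.3) were alternatives. The fits were tried on simulated data with a log2 change of 2 in either direction in 200 of 12298 genes (dispersion 0.05). They recovered 96.5% to 99% of these. No simulated library deviated as tamoxifen 1 does, and smaller changes were not simulated, so the outcome does not carry over to those cases. The members and lists were chosen with earlier results of these data known. Named genes are the members, Usp18, the 3 genes per list with the smallest p and the 5 nearest profiles. Marker genes, genes sharing exons, Tbk1, Irf3, Mb21d1, Trex1, the other Toll-like receptors and the nearest profiles without tamoxifen 1 were named outside this rule, after their values were seen. Nothing in the sources used here says more than that each library was a separate mouse. The p-values therefore measure the spread between these libraries, in which mouse and library preparation cannot be told apart.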

Additional observations from a re-analysis of the deposited data

How the results depend on the processing

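Of the members, 0 passed the threshold in limma on all 6 libraries, 1 in DESeq2, 3 with library weights, 0 to 1 when each library was left out in turn, 3 in DESeq2 without tamoxifen 1 and 1 in edgeR without tamoxifen 1. Of all genes in limma, 0% passed on all 6 libraries, 6.36% with weights and 0.333% without tamoxifen 1. Over the wider gene sets of DESeq2 the shares were 0.293% of 24246 and, without tamoxifen 1, 0.971% of 23788. In edgeR without tamoxifen 1, 0.364% of 12628 genes passed. Of the 102 other pathway genes tested in limma, 3 passed in DESeq2, 8 with library weights (a share near that of all genes), 0 to 3 with 1 library left out, 6 in DESeq2 without tamoxifen 1 and 3 in edgeR without it. The Dhx58 difference passed at 1.47 in DESeq2, 1.08 with weights, and 1.13 in both DESeq2 and edgeR without tamoxifen 1, and it was 1.11 to 1.59 with 1 library left out. Ddx58 passed at 0.71 with weights and 0.81 in DESeq2 without tamoxifen 1, and Adar at 0.44 and 0.51. Eif2ak2 turned positive with weights (0.24), in DESeq2 (0.35) and edgeR (0.36) without tamoxifen 1 and with the GC correction, alone or with the replicate block (0.018), and it was -0.62 to 0.34 with 1 library left out. The cause of these changes was not tested.

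The deviations of same-numbered libraries from their group means had correlations of -0.0236, 0.0607 and -0.153. Tamoxifen 1 enters the tamoxifen group mean, so these values cannot decide whether the numbers pair the mice. The sources used here do not say. With the replicate block 0 members and 0 pathway genes passed, and 426 genes had an unadjusted p under 0.05 against 550 without it. The GC correction with the block, the repeats of the non-overlap counts, and the levels per kb and nearest profiles without tamoxifen 1 were chosen after the data were seen. At this depth genes with 3 reads or fewer in a library have no order there. The median log2 difference in DESeq2 was 0.11 over its 24246 genes and 0.0043 over the 12298 genes that passed the filter for limma.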
